A study of Mus musculus with 6 samples.

Results

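The genes of the COPI and COPII vesicle coats, of the small GTPases that recruit them, and of the receptors that load cargo into the vesicles were followed in mGLUTag cells, an immortalized mouse line of the intestinal L-cell, the source of glucagon-like peptide-1 (GLP-1). The set was chosen by symbol and holds 40 listed symbols. COPG is an older symbol of COPG1, so that they stand for 39 genes. Of these, 36 had at least 1 probe (62 probes in all), out of 30853 genes and 45281 probes in the table. No probe carried the symbols SEC23B, TMED5 or ARF1. The line was derived from an intestinal tumour in a mouse that carried a viral oncogene under the proglucagon promoter, and it is 1 clonal model rather than tissue. Cells in every group had been starved of serum, exposed to forskolin, which raises cAMP and so aligns the clocks of the cells, and returned to growth medium. Total RNA was collected 4 h (n = 3) and 16 h (n = 3) later, times chosen by the study for a high and a low level of Arntl, which encodes the clock factor BMAL1. No unsynchronized or untreated sample was included, so that each value is a comparison of these 2 times only. The comparison addressed whether transcripts of vesicle transport differ between those times.

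Secretory proteins such as proglucagon leave the endoplasmic reticulum (ER) in vesicles coated with COPII. The GTPase SAR1 recruits the inner coat of SEC23 and SEC24, in which SEC24 binds the cargo, and the outer cage of SEC13 and SEC31 then bends the membrane at exit sites that SEC16 organizes. COPI, a coat assembled from the coatomer subunits, works in the opposite direction, from the Golgi to the ER, and is recruited by ARF GTPases after the exchange factor GBF1 has loaded them with GTP. In an L-cell this shuttle supplies the Golgi, where the dense-core granules that hold GLP-1 are formed.

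The label of the cells was first set against marker genes. Of 16 L-cell markers 14 were measured, among them GCG, the proglucagon gene, at a mean deposited intensity of 19565 at 4 h and 11924 at 16 h. PYY was not above background on any array, and PCSK1 was above it on 1 array. The 16 intensities summed to between 40334 and 46878 at 4 h and between 25913 and 31740 at 16 h. Of 14 markers of immune, stromal, absorptive, goblet, Paneth and β-cells, 1 (COL1A1) was measured, and their intensities summed to between 26.2 and 82.7 at 4 h and between 19.5 and 46.8 at 16 h. Such sums weigh the brightest probes most, GCG among them, and are given to set the times side by side, not the lists. A gene was counted as measured when its probe with the highest mean signal lay above the noise limit, taken from the negative values of each array, on at least 3 of the 6 arrays. Each 4 h array was brighter than each 16 h array, with a mean intensity over all probes of 322 ± 31.3 against 236 ± 17.0 (SD, n = 3; exact two-sided permutation test, p = 0.1, which is the smallest that 3 arrays against 3 allow). In RNA from whole cultures, fewer cells of a kind and less RNA per cell cannot be told apart. Changes are therefore given after quantile normalization, as log2 differences of 4 h minus 16 h relative to the other probes. The 3 probes for 18S ribosomal RNA also differed between arrays. Their mean log2 intensity was 8.57, 10.78 and 8.82 on 4 h replicates 1 and 3 and 16 h replicate 1. It lay between 5.41 and 6.86 on the others. The arrays were divided by rank into the 3 highest and the 3 lowest, and 4 h replicate 3 stood well above the rest of its set. Values are accordingly also given within each of these sets of 3 arrays where they bear on a member. In each set 1 of the times is represented by a single array, so that these values are descriptions with no replicate check. Whether the samples of a time came from separate cultures is not stated, so p-values measure the spread between these samples, which may be technical.

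Of the 36 genes with a probe, 30 were measured, all of them above the noise limit on all 6 arrays. None was called as different. When p-values were adjusted over all 45281 probes (limma, Benjamini-Hochberg), 0 members were higher and 0 lower at 4 h, with adjusted p between 0.919 and 0.999. Over all probes the same test called 0.00442% higher and 0.00442% lower. Before adjustment, at p under 0.05, there were also 0 members in either direction, where 5.77% of the 12342 measured genes were higher and 5.21% lower. Without 16 h replicate 1, the array whose removal gave the most, 3 members were higher and 1 was lower by that rule (limma), where 6.94% and 8.07% of measured genes were. On the scale with the offset of 50, each of the 30 intervals lay within 1 on the log2 scale of 0, and 25 lay within 0.5. The lowest bound was -0.45, for COPZ1, and the highest was 0.87, for TMED7. The offset shrinks the changes of dim probes, so that these intervals do not bound the change in intensity of members such as ARCN1, COPZ2 and SEC23A. The normalized values did not overlap for 1 member, ARCN1, which was higher on each 4 h array, and 0 members were lower on each, against 6.48% and 5.71% of measured genes. These intervals are not adjusted for the number of probes, so that they do not mark the smallest change that the adjusted test could call. With 3 arrays per time, larger changes could also miss its threshold.

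**Figure D1:**
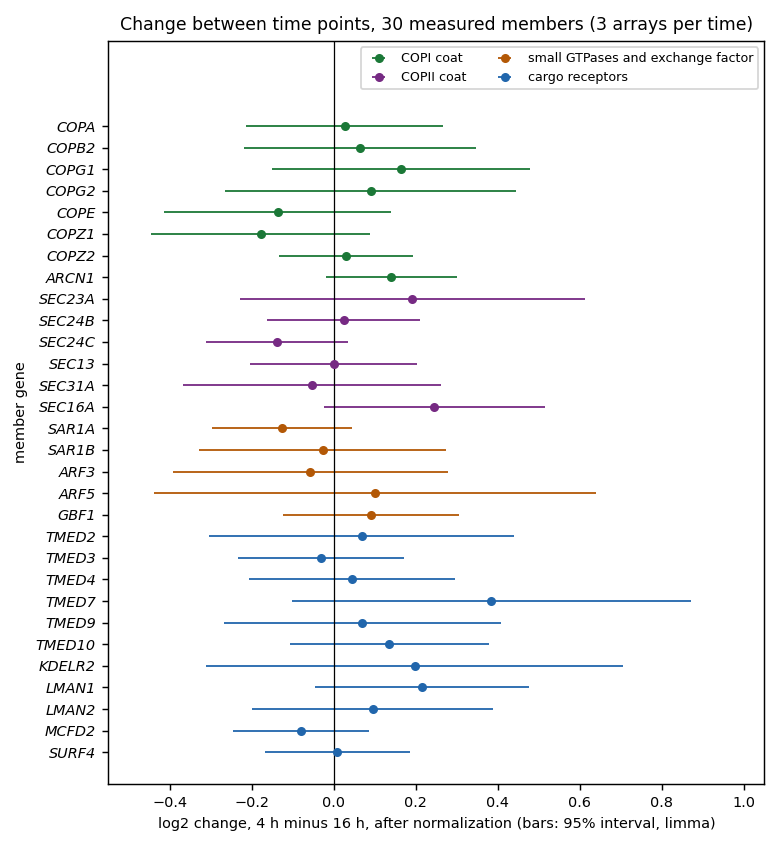
Log2 change (4 h minus 16 h, horizontal axis) of the 30 measured members after normalization, each with its 95% interval from limma (3 arrays per time) and coloured by group of members. Every interval crosses 0, and the widest belong to ARF5, KDELR2 and TMED7.

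Before normalization the members shared the greater brightness of the 4 h arrays. All 30 measured members had a higher mean intensity at 4 h, by between 1.25-fold (COPZ1) and 2.06-fold (ARCN1), and for 18 of them every 4 h array was above every 16 h array. Every 4 h array was likewise above every 16 h array for 48.0% of all measured genes. The median log2 ratio of the intensities was 0.57 over the members and 0.54 over all measured genes. Intensities of different probes are not on one scale. The members shown array by array are, in each group, the 4 with the smallest p and the one with the highest mean intensity. KDELR2 was added after its values were seen. No difference in level between members is read from brightness.

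**Figure D2:**
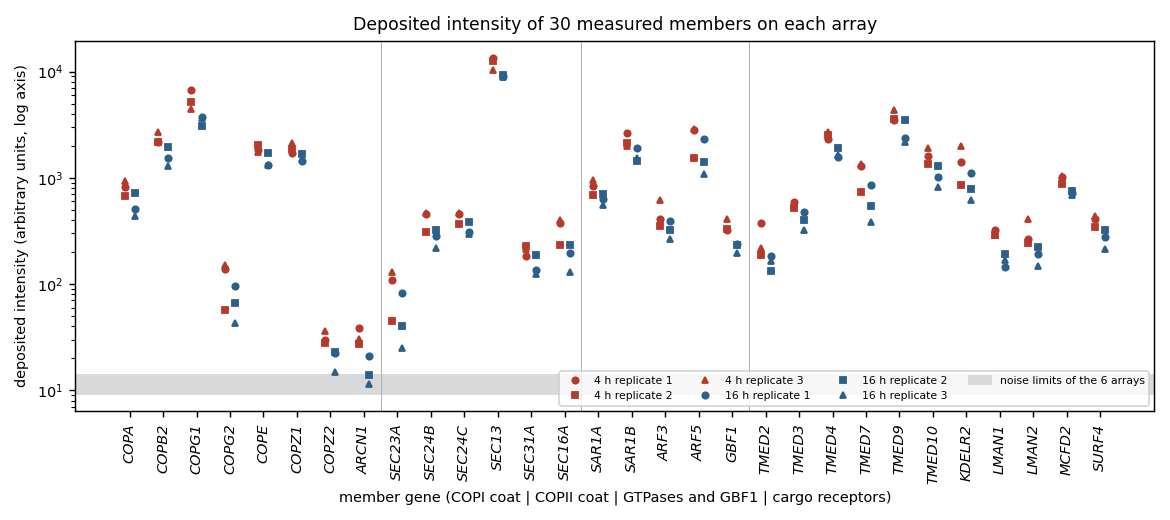
Deposited intensity (log axis, arbitrary units) of the 30 measured members on each of the 6 arrays, with 4 h in red and 16 h in blue and one symbol per replicate. The red points lie higher for most members, as they do for the array as a whole, and the grey band gives the noise limits.

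The COPI coat was represented by 9 genes, of which 8 were measured. Their median log2 change was 0.047, with 6 above 0 and 2 below, against a median of 0.00099 over all measured genes. ARCN1, which encodes the δ subunit of coatomer, had deposited intensities of 38.4, 27.3 and 30.3 on the 4 h arrays against 21.2, 13.9 and 11.4 on those of 16 h, close to the noise limits of between 9.20 and 14.0. After quantile normalization the times were still apart, at 6.48 ± 0.04 at 4 h and 6.34 ± 0.08 at 16 h (SD, n = 3). The log2 change was 0.14 (SE 0.071, 95% interval -0.020 to 0.30, limma adjusted p = 0.920), which did not pass the threshold. Because an offset of 50 was added to all intensities, the change of so dim a probe is understated: it was 0.23 with an offset of 16 and 0.55 without background correction (limma adjusted p = 0.844). COPG1, the γ subunit, which belongs to the adaptor-like part of coatomer, was at 6759, 5132 and 4458 on the 4 h arrays against 3722, 3082 and 3621 on those of 16 h for its brightest probe. Its values overlapped after normalization, with a log2 change of 0.16 (SE 0.14, 95% interval -0.15 to 0.48, limma adjusted p = 0.959).

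The members of this coat below 0 were its ε and ζ subunits. COPE (ε), which steadies the outer part of the coat, had intensities of 1827, 2047 and 1756 on the 4 h arrays against 1331, 1705 and 1334 on those of 16 h. Its normalized values were 10.70 ± 0.23 at 4 h and 10.83 ± 0.15 at 16 h (SD, n = 3), with a log2 change of -0.14 (SE 0.12, 95% interval -0.41 to 0.14, limma adjusted p = 0.959). COPZ1 (ζ) had intensities of 1707, 1887 and 2145 on the 4 h arrays against 1427, 1682 and 1495 on those of 16 h. For this gene the log2 change was -0.18 (SE 0.12, 95% interval -0.45 to 0.089, limma adjusted p = 0.948). Both subunits had a higher mean intensity at 4 h as deposited, while the log2 changes of their brightest probes were below 0. Neither change passed the threshold, and the sign for COPE depended on the probe. The log2 changes of the remaining subunits were smaller: COPA (α) at 0.026, COPB2 (β′) at 0.064, COPG2, the second γ isoform, at 0.089, and COPZ2, the second ζ isoform, at 0.030. COPB1 (β) exceeded the noise limit on 1 array and was not tested further.

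Of the 9 genes listed for the COPII coat, 8 had a probe and 6 were measured. Their changes were spread evenly about 0 (3 above, 3 below), with a median log2 change of 0.011. SEC16A, the scaffold of the ER exit site, had the smallest unadjusted p of all members (0.0689). Its intensities were 378, 232 and 402 on the 4 h arrays against 196, 233 and 131 on those of 16 h. Replicate 2 at 4 h and replicate 2 at 16 h were alike, so that the times overlapped, and the log2 change was 0.25 (SE 0.12, 95% interval -0.023 to 0.51, limma adjusted p = 0.919). SEC23A, of the inner coat, gave intensities of 109, 44.8 and 129 on the 4 h arrays against 81.6, 40.7 and 24.9 on those of 16 h. The 3 higher values came from both times, and the log2 change was 0.19 (SE 0.19, 95% interval -0.23 to 0.61, limma adjusted p = 0.962). For this dim probe it was 0.40 without background correction (limma adjusted p = 0.921).

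SEC24 subunits bind the cargo, and 2 of the 4 genes were measured. SEC24C was at 461, 364 and 466 on the 4 h arrays against 308, 382 and 298 on those of 16 h, with a log2 change of -0.14 (SE 0.077, 95% interval -0.31 to 0.035, limma adjusted p = 0.924), and SEC24B had one of 0.024 (limma adjusted p = 0.989). Neither of the other pair, SEC24A and SEC24D, was above the noise limit on any array. Of the outer cage, SEC31A was at 186, 227 and 213 on the 4 h arrays against 137, 188 and 124 on those of 16 h. Its normalized values overlapped, with a log2 change of -0.054 (SE 0.14, 95% interval -0.37 to 0.26, limma adjusted p = 0.984). SEC13, the other cage subunit, had intensities of 13566, 12696 and 10362 on the 4 h arrays against 9151, 9370 and 8977 on those of 16 h. As deposited, each 4 h value of SEC13 was above each 16 h value, but after normalization the means were 13.39 ± 0.16 at 4 h and 13.39 ± 0.07 at 16 h (SD, n = 3). Its log2 change was -0.00073 (SE 0.090, 95% interval -0.20 to 0.20, limma adjusted p = 0.999), and -0.13 with linear scaling in place of quantile normalization.

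Of the small GTPases and the exchange factor, 6 of 7 had a probe and 5 were measured, with a median log2 change of -0.028 (2 above 0, 3 below). SAR1A, one of the GTPases that start a COPII coat, had intensities of 846, 687 and 954 on the 4 h arrays against 636, 708 and 555 on those of 16 h and a log2 change of -0.13 (SE 0.075, 95% interval -0.30 to 0.043, limma adjusted p = 0.937). Its paralog SAR1B had a log2 change of -0.028 (limma adjusted p = 0.995). GBF1, the exchange factor for the ARF GTPases at the early Golgi, was at 326, 326 and 408 on the 4 h arrays against 237, 233 and 196 on those of 16 h. The 4 h values of GBF1 were all above those of 16 h as deposited. Once normalized they overlapped, with a log2 change of 0.090 (SE 0.094, 95% interval -0.12 to 0.30, limma adjusted p = 0.962). ARF4 was not above the noise limit on any array.

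The ARF GTPases bind the Golgi membrane once loaded with GTP. ARF5, an ARF of the early Golgi, had intensities of 2809, 1527 and 2861 on the 4 h arrays against 2332, 1419 and 1080 on those of 16 h. Replicate 2 at 4 h was close to replicates 2 and 3 at 16 h, and the log2 change was 0.10 (SE 0.24, 95% interval -0.44 to 0.64, limma adjusted p = 0.983), the widest standard error among the measured members. For ARF3, an ARF of the later Golgi, the intensities were 408, 349 and 623 on the 4 h arrays against 392, 321 and 263 on those of 16 h. As deposited, 1 array, 4 h replicate 3, stood above the other 5. After normalization the highest values were those of 4 h replicate 3 (9.13) and 16 h replicate 1 (9.05). The log2 change of ARF3 was -0.058 (SE 0.15, 95% interval -0.39 to 0.28, limma adjusted p = 0.984).

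The cargo receptors were the largest group, with 13 of 14 genes having a probe and 11 measured. Their median log2 change was 0.069, with 9 above 0 and 2 below. This median was -0.0037 without 4 h replicate 3 and 0.18 without 4 h replicate 1. LMAN1, a lectin that carries glycoproteins from the ER to the Golgi, had intensities of 321, 290 and 288 on the 4 h arrays against 146, 192 and 167 on those of 16 h. Every 4 h value was above every 16 h value as deposited. After normalization they met, at 8.30 ± 0.15 at 4 h and 8.09 ± 0.20 at 16 h (SD, n = 3), with a log2 change of 0.21 (SE 0.12, 95% interval -0.047 to 0.48, limma adjusted p = 0.924). Within the arrays with high 18S values LMAN1 was higher at 4 h by 0.35, and within the others by 0.27. With that separation as a term, the log2 change was 0.31 (SE 0.077, limma adjusted p = 0.435), which was not called either. MCFD2, the soluble partner of LMAN1 in the transport of clotting factors, was at 1018, 873 and 1041 on the 4 h arrays against 724, 746 and 691 on those of 16 h. Its log2 change was -0.080 (SE 0.074, 95% interval -0.25 to 0.087, limma adjusted p = 0.959), and the difference between the partners was not tested. LMAN2, a related lectin, had a log2 change of 0.095 (limma adjusted p = 0.974).

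The p24 proteins, encoded by the TMED genes, are transmembrane receptors that cycle between ER and Golgi in both kinds of vesicle. TMED7 had the largest log2 change among the measured members by their brightest probes. Its intensities were 1284, 743 and 1337 on the 4 h arrays against 862, 545 and 386 on those of 16 h. Replicates 1 and 3 at 4 h were high together with replicate 1 at 16 h, and the log2 change was 0.38 (SE 0.21, 95% interval -0.10 to 0.87, limma adjusted p = 0.924). It was 0.038 within the arrays with high 18S values and 0.31 within the others. The change of TMED7 was 0.17 with that separation as a term and 0.18 with its probes averaged. In both cases those of LMAN1 (0.31 and 0.21) and SEC16A (0.19 and 0.25) were larger. With averaged probes those of KDELR2 (0.20) and SEC23A (0.19) were larger as well. TMED10 was at 1600, 1358 and 1900 on the 4 h arrays against 1013, 1280 and 825 on those of 16 h. For it the log2 change was 0.14 (SE 0.11, 95% interval -0.11 to 0.38, limma adjusted p = 0.957). TMED9 had intensities of 3530, 3612 and 4311 on the 4 h arrays against 2375, 3483 and 2158 on those of 16 h. Of its 16 h values, that of replicate 2 was close to the 4 h values, and the log2 change was 0.069 (SE 0.15, 95% interval -0.27 to 0.41, limma adjusted p = 0.983), and 0.0050 with linear scaling. For TMED2, TMED3 and TMED4 the log2 changes were 0.068, -0.032 and 0.045, with limma adjusted p of 0.983, 0.985 and 0.984.

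The remaining receptors return or export particular cargo. KDELR2, one of the receptors that bring escaped ER proteins back in COPI vesicles, had intensities of 1411, 856 and 1977 on the 4 h arrays against 1102, 782 and 617 on those of 16 h and a log2 change of 0.20 (SE 0.22, 95% interval -0.31 to 0.70, limma adjusted p = 0.966). Without 4 h replicate 3 it was -0.040. The other KDEL receptors, KDELR1 and KDELR3, were above the noise limit on no array, so that only 1 of the 3 was measured. SURF4, an export receptor of the ER, had a log2 change of 0.0087 (SE 0.078). In all, 6 genes with a probe were not measured: COPB1, SEC24A, SEC24D, ARF4, KDELR1 and KDELR3. No level is read from these dim probes.

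Several members were read by more than 1 probe. Where at least 2 probes exceeded the limit on every array, no gene had probes whose log2 changes differed by more than 0.5. The widest difference, 0.41, was that of TMED7: its bright probe had a log2 change of 0.38 and a dim one (ILMN_1234851) one of -0.023. The log2 changes lay, for the 4 probes of TMED4, between -0.017 and 0.20, for those of COPE between -0.19 and 0.057, for the 4 of COPG1 listed as COPG between -0.062 and 0.16, and for 2 probes of COPZ2 between -0.059 and 0.030. The signs of COPE, COPG1, COPZ2, TMED4 and TMED7 thus depended on the probe. Probe sequences were not used here, so that cross-hybridization between paralogs such as SAR1A and SAR1B was not tested.

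Some members varied widely between arrays of one time. Within a time, 10 of the 30 measured members ranged over more than 0.5 on the normalized log2 scale (33.3%), as did 17.9% of the 12342 measured genes. These shares are not like for like. The median of the mean intensities was 581 over the members and 166 over all measured genes, and the offset shrinks the ranges of dim probes. Members were not compared with genes of like brightness. The larger of the ranges at 4 h and 16 h was 0.84 for ARF5, 0.84 for TMED7 and 0.92 for KDELR2. The high values of these 3 genes and of SEC23A fell on the 3 arrays with high 18S values. With the time as the other term, their mean was higher on those arrays by 0.72 (ARF5), 0.63 (TMED7), 0.61 (KDELR2) and 0.53 (SEC23A). At the other end were SEC31A (-0.34), COPE (-0.32), LMAN1 (-0.29) and TMED4 (-0.23). The separation was defined on the 18S probes and is no group of the study, these 8 genes were picked after their values had been seen, and the part that the 18S signal has in the pattern was not tested. Within the arrays with high 18S values, KDELR2 had a log2 change between the times of 0.057 and within the others one of -0.068. For ARF5 these changes were -0.21 and -0.067, and the change over all arrays was 0.10. SEC23A had -0.035 and 0.064, and 0.015 with the separation as a term, against 0.19 over all arrays. For COPE the values were -0.10 and 0.043, and -0.030 with the term, against -0.14. Those of SEC31A were -0.054 and 0.17, and those of TMED4 were 0.12 and 0.12.

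**Figure D3:**
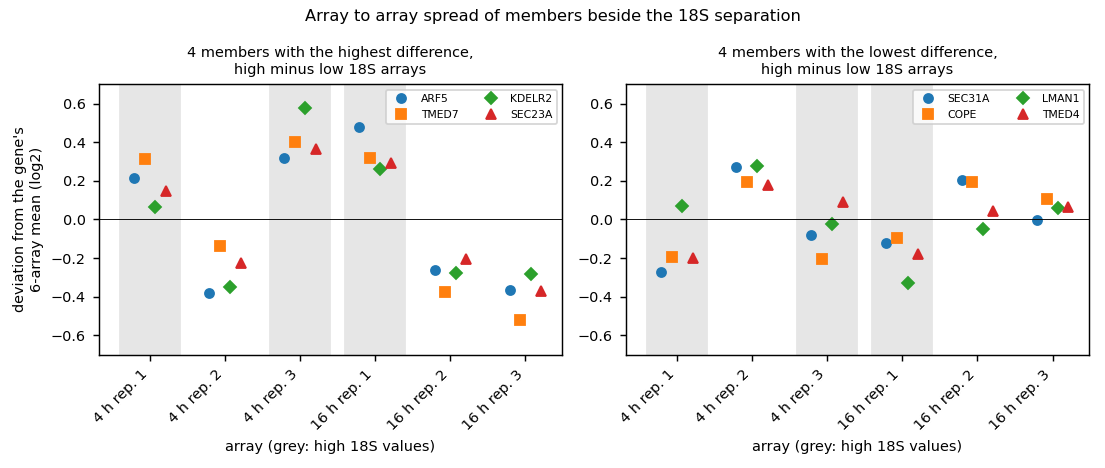
Deviation of the normalized log2 value from the mean of the gene over 6 arrays, for the 4 measured members with the highest (left) and the 4 with the lowest (right) difference between arrays with high and low 18S values. Grey columns mark the 3 arrays with high 18S values, on which all 4 members at left lie above 0.

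The groups were then described array by array, as the median over their measured genes of the deviation from the mean of each gene. For the COPI coat these medians were -0.075, 0.064 and 0.049 at 4 h and -0.042, 0.079 and -0.10 at 16 h. For the COPII coat they were 0.027, -0.071 and 0.020 at 4 h and -0.074, 0.076 and -0.048 at 16 h. In both coats the times overlapped. The GTPases and GBF1 gave -0.13, -0.12 and 0.14 at 4 h and 0.20, -0.092 and -0.015 at 16 h, with the highest value at 16 h. The cargo receptors gave -0.043, 0.015 and 0.090 at 4 h and -0.037, -0.038 and -0.10 at 16 h, where 2 of the 3 arrays at 4 h were above all 3 at 16 h and 4 h replicate 1 was not. Over the 30 measured members the median log2 change was 0.055, with 20 above 0 and 10 below. It was -0.013 without 4 h replicate 3 and -0.0010 without 16 h replicate 3.

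**Figure D4:**
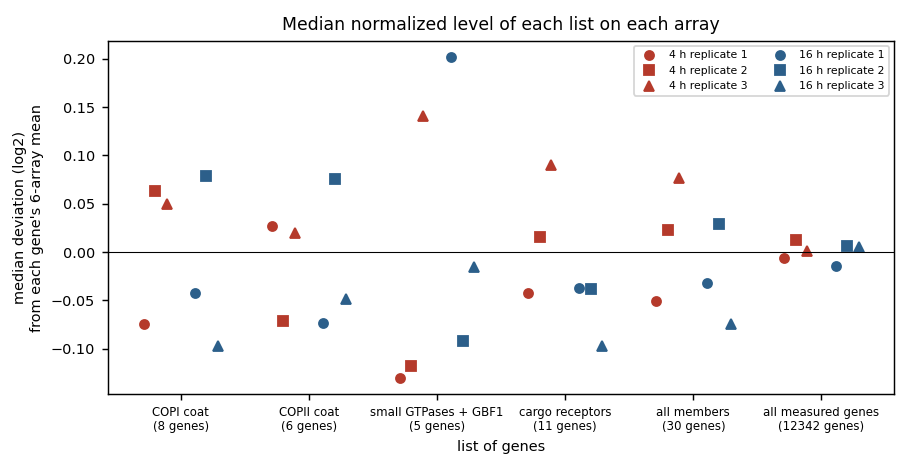
Median deviation (log2) of the genes of each list from their own 6-array means, for each array (4 h in red, 16 h in blue, one symbol per replicate). In all 4 groups of members the values of the times overlap, and over 12342 measured genes the medians lie within 0.02 of 0.

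Other genes of the early secretory pathway were read from lists fixed by symbol. Of 100 listed symbols, 91 had a probe and 82 were measured, and limma called 0 higher and 0 lower at 4 h. Before adjustment, 9 had a p under 0.05 and were higher and 1 was lower, where 5.77% and 5.21% of all measured genes were. Their median log2 change was 0.062. The 2 genes with the smallest p in each list are given. Among the RAB GTPases of the early pathway (8 measured, 2 higher before adjustment), RAB33B, a Golgi RAB, had a log2 change of 0.26 (limma, SE 0.070, adjusted p = 0.602) and RAB18 one of 0.29 (limma, SE 0.091, adjusted p = 0.718). Among tethers and Golgi matrix proteins (24 measured, 3 higher), COG3, a subunit of the tether for vesicles within the Golgi, had a log2 change of 0.25 (limma, SE 0.067, adjusted p = 0.565) and GORASP2, a Golgi stacking protein, one of 0.27 (limma, SE 0.085, adjusted p = 0.729). Among other ARF-family GTPases and ARF regulators (11 measured, 2 higher), ARF2, a further ARF GTPase, had a log2 change of 0.21 (limma, SE 0.063, adjusted p = 0.718) and ARFGAP1, which makes ARF1 hydrolyse its GTP, one of 0.19 (limma, SE 0.079, adjusted p = 0.901).

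Regulators of ER exit sites and COPII numbered 18 measured genes, of which 2 were higher and 1 was lower before adjustment. YIF1B, which cycles between ER and Golgi, had a log2 change of -0.33 (limma, SE 0.10, adjusted p = 0.718), while ERGIC2, of the compartment between ER and Golgi, had one of 0.28 (limma, SE 0.10, adjusted p = 0.820). In the list of ER-Golgi SNAREs and fusion factors 18 genes were measured, with 0 in either direction before adjustment. BNIP1, a SNARE of the retrograde route, had a log2 change of 0.12 (limma, SE 0.083, adjusted p = 0.948) and SEC22A one of 0.20 (limma, SE 0.14, adjusted p = 0.952). Of the other p24 and lectin genes 3 were measured, LMAN2L with a change of -0.15 (limma, SE 0.11, adjusted p = 0.953) and TMED8 with one of 0.025 (limma, SE 0.11, adjusted p = 0.993). None of the 12 genes named from these lists passed the threshold. The median log2 change was 0.069 in a list of 20 measured genes of ER folding and stress and 0.013 in one of 17 for the SNARE machinery of granule exocytosis.

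Since the times were chosen for BMAL1, which binds the E-box CACGTG, and the cells were synchronized through cAMP, whose factor CREB binds the element TGACGTCA, the promoters of the members were searched for both words. The windows are those of RefSeq (build GRCm38.p6), from 250 bases before to 50 after each gene start, and both words read the same on either strand. The study tested BMAL1 at non-canonical E-boxes in the promoter of Scgn, the secretagogin gene. Those lay farther upstream than these windows reach, and their words were not searched. A window was held for 34 of the 39 genes, and not for ARCN1, KDELR2, LMAN1, TMED2 and TMED7. The E-box occurred in 4 of the 34 (11.8%), ARF5, MCFD2, SAR1A and TMED10, against 8.09% of the 27025 genes with a window. The word TGACGTCA occurred in 1 (2.94%), COPE, against 2.03%. An ER stress element, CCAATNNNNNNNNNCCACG, was searched on both strands and occurred in 0 of the 34 and in 0.137% of genes. The windows of the 5 members with a word are shown because they hold the words searched. The 250 bases before the start are written 5′ to 3′ along the gene, with the E-box or the cAMP element in capitals.

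Arf5, chr6:28423354-28423603, plus strand: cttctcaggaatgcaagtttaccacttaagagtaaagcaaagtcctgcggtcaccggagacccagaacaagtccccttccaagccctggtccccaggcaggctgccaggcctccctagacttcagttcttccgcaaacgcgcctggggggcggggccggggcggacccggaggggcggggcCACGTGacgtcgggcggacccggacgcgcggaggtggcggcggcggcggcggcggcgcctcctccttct
Mcfd2, chr17:87265948-87266197, minus strand: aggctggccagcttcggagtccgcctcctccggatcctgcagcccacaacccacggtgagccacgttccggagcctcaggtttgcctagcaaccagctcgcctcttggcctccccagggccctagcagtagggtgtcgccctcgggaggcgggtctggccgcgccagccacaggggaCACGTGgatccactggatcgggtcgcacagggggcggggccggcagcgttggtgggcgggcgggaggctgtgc
Sar1a, chr10:61680035-61680284, plus strand: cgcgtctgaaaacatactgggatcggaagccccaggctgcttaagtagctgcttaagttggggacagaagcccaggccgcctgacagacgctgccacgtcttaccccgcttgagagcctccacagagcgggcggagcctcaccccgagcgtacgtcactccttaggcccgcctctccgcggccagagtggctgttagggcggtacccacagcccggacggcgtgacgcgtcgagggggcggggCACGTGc
Tmed10, chr12:85374718-85374967, minus strand: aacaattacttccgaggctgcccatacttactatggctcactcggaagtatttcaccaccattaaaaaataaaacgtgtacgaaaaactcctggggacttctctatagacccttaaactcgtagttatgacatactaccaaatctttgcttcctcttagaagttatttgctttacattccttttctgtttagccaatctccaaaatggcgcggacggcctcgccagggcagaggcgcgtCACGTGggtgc
Cope, chr8:70302517-70302766, plus strand: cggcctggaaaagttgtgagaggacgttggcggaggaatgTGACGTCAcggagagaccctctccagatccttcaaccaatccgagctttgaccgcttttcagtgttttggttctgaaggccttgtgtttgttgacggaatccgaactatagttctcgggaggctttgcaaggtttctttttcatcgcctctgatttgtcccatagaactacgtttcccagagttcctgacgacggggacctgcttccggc

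The E-box began 69 bases before the start of Arf5, 73 before that of Mcfd2, 7 before that of Sar1a and 11 before that of Tmed10. Of these 4 genes, ARF5 (0.10) and TMED10 (0.14) had log2 changes above 0, and MCFD2 (-0.080) and SAR1A (-0.13) below. The cAMP element began 210 bases before the start of Cope, whose log2 change was -0.14. None of the 5 passed the threshold. A match of letters is a description of the sequence and not a binding site.

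The calls depended on whether arrays were normalized to each other. Without between-array normalization, when the detected probes as a whole were higher at 4 h by a median of 0.39, 4 members were called higher by limma and 0 lower: LMAN1 (0.67, adjusted p = 0.0323), GBF1 (0.56, adjusted p = 0.0382), TMED4 (0.54, adjusted p = 0.0358) and MCFD2 (0.41, adjusted p = 0.0432). Relative to the shared rise these changes were 0.28, 0.17, 0.14 and 0.019. The same rule called 5.10% of all 45281 probes higher. Of those probes, 17366 lay above the noise limit on at least 3 arrays, as all 30 measured members did. The share over all probes is thus not like for like with the count of members. With median scaling, which left a shared rise of 0.30, LMAN1 alone was called (0.58, limma adjusted p = 0.0368). Beside it were 1.84% of all probes, those below the noise limit included. Over all probes, 2308 were called higher and 0 lower without normalization, and 832 and 0 with median scaling, so that 0% were lower in both. The 8 members below 0 that were described array by array were above 0 under both settings, and 5 of these 8 (COPZ1, COPE, SEC24C, SEC31A and SAR1A) stayed below the shared rise. ARCN1 was -0.062 relative to the shared rise under both, but no direction is read from this value. Both settings keep the offset, which shrinks the change of so dim a probe more than that of brighter ones. As deposited, ARCN1 had the largest ratio of mean intensities among the 30 measured members, at 2.06-fold. The mean intensity over all probes was 1.37-fold higher at 4 h. The ratio of ARCN1 rests on 16 h intensities close to the noise limits.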

How the data were processed

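Total RNA from 6 samples of synchronized mGLUTag cells was hybridized by the authors to a mouse Illumina BeadChip. The deposited table gives a linear intensity for each probe on each array, with the background already subtracted and no normalization between arrays. Detection p-values, control probes and slides are not used here, and the scanner settings are not given in the sources used here. Samples were grouped by their titles.

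After normexp correction (offset 50), the intensities were quantile normalized and put on the log2 scale. A linear model with the time as its term was fitted to all probes in R 4.3.3 with limma 3.58.1 (lmFit, eBayes), with two-sided p-values and Benjamini-Hochberg adjustment (threshold 0.05). Quantile normalization removes a change shared by most transcripts, and the offset shrinks that of dim probes. The noise limit of an array was the 99th percentile of its negative values with the sign turned. The brightest probe (highest mean normalized value) stood for its gene, which was measured when that probe was above the limit on at least 3 arrays. Values per array and full statistics are given for the 4 measured members of each group with the smallest p and the one with the highest mean intensity. KDELR2 was added after its values were seen. Of each pathway list, the 2 genes with the smallest p are named.

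The members, lists and tests were chosen with earlier results of these data known. The procedure was tested on simulated data. The planted changes were larger than that of any measured member and lay in bright probes only, with noise independent between arrays. That test does not bear on changes of the size reported here. Alternatives were other background corrections and normalizations, a noise filter, another variance prior, a replicate block, averaged probes and leaving out each array. The separation by 18S probes was added after seeing the data. Array number limits the precision.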

Additional observations from a re-analysis of the deposited data

How the results depend on the processing

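No member was called in either direction without background correction, with an offset of 16, cyclic loess, linear scaling, the noise filter, trend and robust variance, averaged probes, the replicate block, the 18S separation as a term, or when any 1 array was left out. Median scaling called 1 higher and no between-array normalization 4 higher, and either one keeps the greater brightness at 4 h in the values, so that medians rose to 0.32 (COPI), 0.36 (COPII), 0.37 (GTPases and GBF1), 0.45 (cargo receptors) with the first and 0.41 (COPI), 0.45 (COPII), 0.46 (GTPases and GBF1), 0.54 (cargo receptors) with the second. The changes of COPZ1, COPE, SEC24C, SEC31A, SEC13, SAR1A, ARF3, MCFD2 then turned from below to above 0, with the shared rise included: with median scaling, COPZ1 0.22, COPE 0.27, SEC24C 0.25, SEC31A 0.29, SEC13 0.31, SAR1A 0.27, ARF3 0.33, MCFD2 0.32, and without normalization, COPZ1 0.31, COPE 0.36, SEC24C 0.34, SEC31A 0.38, SEC13 0.40, SAR1A 0.36, ARF3 0.42, MCFD2 0.41. Less the median of the detected probes, COPZ1 was -0.085, COPE -0.030, SEC24C -0.050, SEC31A -0.0092, SEC13 0.011, SAR1A -0.033, ARF3 0.027, MCFD2 0.019, under both settings alike. Linear scaling gave SEC13 -0.13, TMED9 0.0050, COPG1 0.10, ARF5 0.054 and SEC31A -0.035, each over 1.5 times from its value after quantile normalization. Group medians also moved, with linear scaling to 0.029 (COPI), -0.0034 (COPII) and -0.055 (GTPases and GBF1). The COPII median was -0.0018 with cyclic loess. With averaged probes the medians were 0.026 (COPI) and -0.058 (GTPases and GBF1), and without background correction that of COPI was 0.080. SEC13 was -0.013 with cyclic loess, and with averaged probes COPG1 was 0.027 and TMED7 0.18. With the 18S separation as a term, added after seeing the data, SEC31A 0.058, SEC13 0.058, ARF5 -0.14, KDELR2 -0.0054 were reversed, the median of the GTPases and GBF1 was -0.13 and SEC23A fell to 0.015, and the cause was not tested. The same term gave ARF3 -0.13, TMED9 0.12 and a COPII median of 0.036. Leaving out 1 array gave medians of -0.030 to 0.064 (COPI), -0.015 to 0.055 (COPII), -0.11 to 0.067 (GTPases and GBF1) and -0.0037 to 0.18 (cargo receptors), and log2 changes of -0.20 to 0.071 (SEC31A), -0.083 to 0.081 (SEC13), -0.056 to 0.36 (ARF5), -0.23 to 0.058 (ARF3), -0.028 to 0.23 (TMED9) and -0.040 to 0.42 (KDELR2), the members given array by array whose direction depended on 1 array. The other members given array by array kept their direction, but most moved by over 1.5 times: ARCN1 0.12 to 0.19, COPE -0.27 to -0.068, COPG1 0.038 to 0.29, COPZ1 -0.25 to -0.053, GBF1 0.032 to 0.20, LMAN1 0.10 to 0.30, MCFD2 -0.12 to -0.023, SAR1A -0.19 to -0.094, SEC16A 0.14 to 0.34, SEC23A 0.055 to 0.39, SEC24C -0.21 to -0.10, TMED10 0.045 to 0.23, TMED7 0.22 to 0.64. Replicate numbers were not taken as pairs, since arrays of one number correlated in their deviations at 0.25, 0.17 and -0.49. With the replicate block, limma called 0 members and 0 of all probes (2489 probes at an unadjusted p under 0.05), against 2 higher and 2 lower of all probes without it. For genes near the noise limit the offset shrinks the change: that of ARCN1 was 0.23 with an offset of 16 and 0.55 without background correction.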

Other observations

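The table holds 4 further probes under older names that RefSeq gives as synonyms of members, which the choice by symbol left out. A probe listed under a clone name that is a synonym of TMED7 had intensities of 780, 455 and 775 on the 4 h arrays against 558, 397 and 328 on those of 16 h. As with the bright TMED7 probe, replicates 1 and 3 at 4 h and replicate 1 at 16 h were the highest. SEC31L1, an older name of SEC31A, was at 73.5, 93.1 and 77.2 on the 4 h arrays against 64.2, 83.9 and 65.8 on those of 16 h, where the times overlapped. The other 2 probes, under synonyms of GBF1 and TMED10, were below 0 on all 6 arrays.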
